A study of Rattus norvegicus with 9 samples.

Results

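The genes described here are 43 members of the TGF-beta, BMP and Wnt signaling pathways, out of 5760 genes listed in either of 2 tables of cardiac RNA-seq values from rats with heart failure. They were chosen by symbol alone, with a pattern that takes the TGF-beta, BMP, GDF, activin and Wnt ligands, their receptors, Smads, Smurfs, latent TGF-beta binding proteins, Id proteins, Frizzleds, secreted antagonists and beta-catenin partners. Of 118 protein-coding rat symbols in RefSeq that match this pattern, 43 were listed and 75 were not. A table lists a gene only where the authors' own test found a difference, so a gene's presence is itself a result of the study and the absence of a gene gives no level for it. The first table, with libraries headed Model and Cal, held 34 of the members, the second, with libraries headed Con and Cal, held 15, and 6 genes (Tgfb1, Tgfbr2, Bmp4, Smad6, Id1 and Id2) stood in both. No Dkk, Grem, Axin or Tcf7 gene was listed, although the rat has 5, 2, 2 and 3 of them.

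The hearts came from 9 male Sprague Dawley rats, 3 per group, of a stated body weight but no stated age. Control rats (the sham group) had the operation without ligation, Model rats had the left anterior descending coronary artery tied to induce heart failure after infarction, and Cal rats had the same ligation and then calycosin, an isoflavone of Astragalus, by mouth at 80 mg/kg per day. Dosing began 24 h after surgery and lasted 28 days, and Control and Model rats were given distilled water instead. The labels give the tissue as heart without saying whether infarct, border or remote muscle was taken, so each library may mix scar and muscle, and fewer cells of a type cannot be told apart from less RNA per cell. The cardiomyocyte genes Myh6 and Ryr2, the only listed ones of 7 markers, were at 247859 to 336025 and 19333 to 27829 normalized counts in the second table, so cardiac muscle RNA was abundant.

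The headings of the tables contradict each other, and every direction below depends on which heading is right. The first table also has a mean column per group, and in 4288 of 4288 genes the mean called Cal is that of the Model-headed samples and the mean called Model is that of the Cal-headed samples. In the second table the mean called Model is that of the Cal-headed samples in 2458 of 2458 genes. The reads behind the columns headed Cal were the same in both tables in 986 of 986 shared genes, so these are 1 set of 3 libraries under either name. Libraries are therefore named here by the heading of their sample column (Cal-headed, Model-headed, Con-headed), and by the mean columns the Cal-headed libraries would be the untreated model hearts and the Model-headed ones the calycosin hearts. The depositors also named the second comparison Model against Con, as its mean columns do. Which reading is right could not be settled from the tables.

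TGF-beta family ligands bind pairs of type I and type II receptor kinases, which phosphorylate Smad proteins. TGF-beta and activin act mainly through Smad2 and Smad3 and are known in the heart for fibroblast activation and scar formation, while BMPs act through Smad1, Smad5 and Smad9 and turn on the Id genes, with Smad6 and Smad7 as feedback inhibitors. Wnt ligands bind Frizzled receptors with the coreceptors Lrp5 and Lrp6, and in the canonical branch stabilize beta-catenin, which acts on genes with TCF and LEF factors and is largely quiet in the healthy adult heart.

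Promoter sequences are shown for 5 members whose values carry the largest or most repeated differences below, so that the starts of these genes can be compared. Each is the 250 bases before the gene's start in the rat RefSeq table (build GRCr8), 5′ to 3′ on the gene's strand, with capitals for a match, on either strand, to GGCGCC (a box bound by BMP Smads), CAGAC (the Smad box), CAGCTG (an E-box, the kind of site bound by the helix-loop-helix partners of Id proteins) or CTTTGA (the TCF and LEF core). They lie at chr1:90324062-90324311 on the plus strand (Tgfb1), chr15:22101934-22102183 on the minus strand (Bmp4), chr13:33089374-33089623 on the minus strand (Inhbb), chr3:161671314-161671563 on the plus strand (Id1) and chr6:47470996-47471245 on the minus strand (Id2).
Tgfb1: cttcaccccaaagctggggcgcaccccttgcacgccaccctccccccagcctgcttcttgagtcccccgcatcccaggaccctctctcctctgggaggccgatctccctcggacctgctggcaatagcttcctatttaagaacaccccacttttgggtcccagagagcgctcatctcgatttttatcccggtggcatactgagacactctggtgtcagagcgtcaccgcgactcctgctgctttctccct
Bmp4: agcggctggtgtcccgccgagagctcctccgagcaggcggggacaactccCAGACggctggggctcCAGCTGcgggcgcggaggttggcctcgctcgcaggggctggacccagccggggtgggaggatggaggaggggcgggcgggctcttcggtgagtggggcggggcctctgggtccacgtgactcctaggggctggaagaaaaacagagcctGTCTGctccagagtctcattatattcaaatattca
Inhbb: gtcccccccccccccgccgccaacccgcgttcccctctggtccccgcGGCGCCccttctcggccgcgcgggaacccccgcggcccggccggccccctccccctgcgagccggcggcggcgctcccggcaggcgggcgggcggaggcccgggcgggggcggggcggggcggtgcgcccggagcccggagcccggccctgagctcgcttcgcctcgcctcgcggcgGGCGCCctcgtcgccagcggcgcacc
Id1: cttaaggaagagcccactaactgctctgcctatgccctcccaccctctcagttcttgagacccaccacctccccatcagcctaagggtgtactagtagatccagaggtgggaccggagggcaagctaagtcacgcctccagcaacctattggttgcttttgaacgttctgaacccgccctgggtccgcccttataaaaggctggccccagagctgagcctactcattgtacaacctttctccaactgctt
Id2: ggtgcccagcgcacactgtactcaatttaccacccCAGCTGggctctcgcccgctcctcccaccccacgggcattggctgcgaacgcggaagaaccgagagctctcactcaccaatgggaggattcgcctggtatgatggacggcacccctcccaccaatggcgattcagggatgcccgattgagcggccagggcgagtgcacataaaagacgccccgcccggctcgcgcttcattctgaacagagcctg
The Inhbb promoter held GGCGCC at 203 and 26 bases before the start, and the Bmp4 promoter held CAGAC at 200 and 35 bases and CAGCTG at 184 bases before it. The Id2 promoter held CAGCTG at 215 bases before the start, and the Tgfb1 and Id1 windows held none of these letters, which says nothing of the factors themselves. Of the 43 members 33 had a promoter in the table. GGCGCC occurred in 12 of 33 (36.4%) against 9.24% of all 27457 promoters, CAGAC in 8 of 33 (24.2%) against 42.8%, CAGCTG in 3 of 33 (9.09%) against 11.9%, and CTTTGA in 3 of 33 (9.09%) against 13.8%. The median GC content was 65.6% in the members' promoters and 52.0% in all promoters, and its part in these shares was not tested. The 6-base GGCGCC is made of G and C alone.

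In the comparison of the Cal-headed with the Model-headed libraries, the ligand Tgfb1 was higher and the ligands Inhbb and Bmp4 were lower in the Cal-headed hearts. A call here is a limma BH-adjusted p under 0.05 over all listed genes together with a log2 fold change beyond 1 on log2(normalized count + 1). Of the 34 members, 12 (35.3%) were called higher in the Cal-headed libraries, against 28.4% of all listed genes, and 10 (29.4%) were called lower, against 31.6%, so both shares were near the background at this scaling. Under quantile scaling 17 were called higher (50% against 32.5% of all listed genes) and 8 lower (23.5% against 27.4%), and under median-ratio scaling 18 higher (52.9% against 38.4%) and 8 lower (23.5% against 24.4%). All 34 had Cal-headed values that did not overlap the Model-headed values, as did 98.2% of all listed genes, and all 34 were at an adjusted p under 0.05, as were 99.6% of all listed genes, which the listing itself favors. The median log2 fold change was 0.78 over the members and -0.52 over all listed genes. It was 0.03 over the 24 TGF-beta and BMP genes and 1.08 over the 10 Wnt genes. At any size 55.9% of the members were higher, against 46.0% of all listed genes. The 24 TGF-beta and BMP genes split into 7 called higher, 7 called lower and 10 not called, and the 10 Wnt genes into 5, 3 and 2. With 3 against 3 libraries a two-sided exact permutation test cannot give a p below 0.1. Single genes are therefore described by their values and by the fit over all listed genes. That fit covers only genes that the authors' test on these libraries had already selected. Its adjusted p-values are therefore no independent evidence of a difference.

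**Figure D1:**
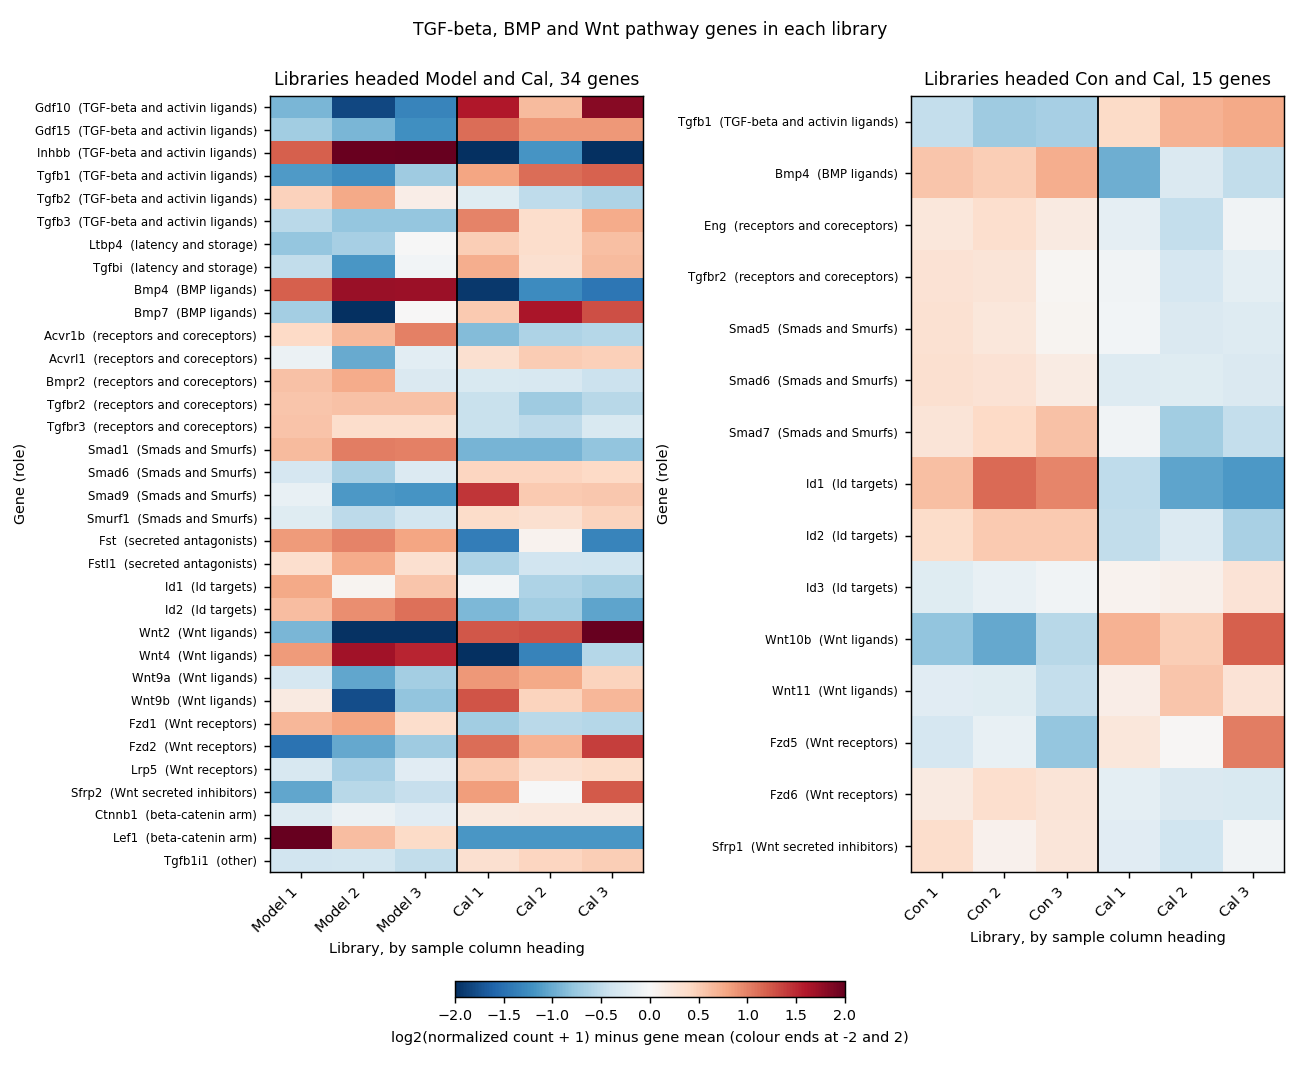
Each row is a gene, labelled with its role, and each column a library named by its sample column heading, with color for log2(normalized count + 1) minus the gene's mean over the 6 libraries of that table, and color ending at -2 and 2. In the left panel (34 genes, 3 Model-headed and 3 Cal-headed libraries) Inhbb and Bmp4 are red on the Model-headed side and Tgfb1 on the Cal-headed side. In the right panel (15 genes, 3 Con-headed and 3 Cal-headed libraries) Wnt10b and Id1 have the deepest colors.

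Among the TGF-beta and activin ligands, Tgfb1, the main isoform of the injured heart, had 1125, 1406 and 1475 normalized counts in the Cal-headed libraries and 296, 273 and 397 in the Model-headed ones. All Cal-headed values were above all Model-headed values, and the log2 fold change was 2.06 ± 0.189 (SE, n = 3 and 3, limma BH-adjusted p = 0.000236). Tgfb3, the third isoform, moved the same way, with 322, 207 and 270 against 111, 93.9 and 93.9, a log2 fold change of 1.39 ± 0.211 (limma BH-adjusted p = 0.00108). Tgfb2 was lower instead, with 125, 104 and 95.6 against 203, 251 and 163, and its log2 fold change of -0.91 ± 0.220 (limma BH-adjusted p = 0.00633) stayed inside the limit of 1. It passed that limit without the third Model-headed library (-1.06) and without the first Cal-headed one (-1.01). Inhbb, the beta-B subunit of activins and inhibins, had the lowest fold change of all 34 members. Its values were 83.0, 155 and 82.8 in the Cal-headed libraries against 807, 1391 and 1584 in the Model-headed ones, a log2 fold change of -3.56 ± 0.334 (limma BH-adjusted p = 0.000244). The Model-headed mean was thus 11.8 times the Cal-headed mean.

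A pair of growth and differentiation factors was called higher in the Cal-headed hearts at low levels. Gdf15, a stress-induced cytokine, had 48.0, 40.4 and 40.1 normalized counts against 13.0, 10.98 and 8.63, a log2 fold change of 1.90 ± 0.280 (limma BH-adjusted p = 0.000983). Gdf10, also named BMP3b, had 36.0, 17.8 and 41.8 against 5.40, 2.44 and 3.83, which rested on 11 reads in all in the Model-headed libraries. Its log2 fold change of 2.71 became 1.55 with a pseudocount of 10, still called. Of the matrix proteins that store TGF-beta or answer to it, Tgfbi, a secreted protein induced by TGF-beta, had 459, 346 and 430 against 197, 123 and 266. The log2 fold change was 1.13 ± 0.286 (limma BH-adjusted p = 0.00727), and 0.83 without the second Model-headed library, inside the limit. Ltbp4, which binds latent TGF-beta to elastic fibers, was the member with the most reads here, at 7591, 6944 and 8179 against 3153, 3418 and 5412. Its log2 fold change of 0.96 ± 0.221 (limma BH-adjusted p = 0.00514) lay just inside the limit, and it was 1.20 without the third Model-headed library, 1.02 without the second Cal-headed one, 1.66 under quantile and 1.26 under median-ratio scaling.

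The BMP ligands split. Bmp4 had 29.5, 47.9 and 41.8 normalized counts in the Cal-headed libraries and 266, 383 and 379 in the Model-headed ones, with no overlap and a log2 fold change of -3.08 ± 0.255 (limma BH-adjusted p = 0.000178). Bmp7, often described as acting against TGF-beta in fibrosis, had 21.2, 46.9 and 36.7 against 8.64, 1.22 and 14.4. Its log2 fold change of 2.31 ± 0.715 (limma BH-adjusted p = 0.01496) was 1.49 without the second Model-headed library, where it had 1 read, and 1.34 with a pseudocount of 10, called in both. Of the 2 listed members that are secreted antagonists, 1 was called lower in the Cal-headed hearts and 1 was not called. Follistatin (Fst), which traps activin, had 13.8, 39.4 and 14.5 against 69.1, 75.6 and 66.1, a log2 fold change of -1.76 ± 0.410 (limma BH-adjusted p = 0.00541). Fstl1, a follistatin-like glycoprotein of the stroma, had 2763, 3270 and 3224 against 5338, 7067 and 5312, and its log2 fold change of -0.93 ± 0.165 (limma BH-adjusted p = 0.00199) was not called and lost the adjusted p under quantile scaling (-0.31, adjusted p = 0.0843).

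Among the 5 receptors and coreceptors 4 were lower in the Cal-headed libraries and 1 was higher, where 54.0% of all listed genes were lower. Of these 5 receptors 2 were called, both lower. Tgfbr2, the type II receptor of TGF-beta, had 1100, 911 and 1012 normalized counts against 2195, 2243 and 2234. The Model-headed values lay close together, and the log2 fold change was -1.15 ± 0.126 (limma BH-adjusted p = 0.000363), which fell inside the limit under quantile (-0.63) and median-ratio scaling (-0.85). Acvr1b, the activin type I receptor ALK4, had 298, 356 and 369 against 725, 855 and 1099, a log2 fold change of -1.37 ± 0.188 (limma BH-adjusted p = 0.000768). Tgfbr3, or betaglycan, the coreceptor that presents TGF-beta2, had 769, 731 and 844 against 1549, 1334 and 1338, with a log2 fold change of -0.85 (limma BH-adjusted p = 0.00121) that was not called. Bmpr2, the type II receptor of BMPs, rested on its libraries. It had 1619, 1604 and 1479 against 3001, 3354 and 1637, so that the third Model-headed library lay just above the highest Cal-headed one. The log2 fold change of -0.70 (limma BH-adjusted p = 0.0308) was -1.02 without that library, and the adjusted p was over 0.05 under quantile scaling (0.516), under median-ratio scaling (0.138) and when the first (0.102) or the second (0.101) Model-headed library or any 1 Cal-headed library was left out (0.0626 to 0.0776).

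The receptor that was higher, Acvrl1 (ALK1, a type I receptor of endothelial cells), had 700, 795 and 780 normalized counts against 516, 278 and 483, a log2 fold change of 0.88 ± 0.242 (limma BH-adjusted p = 0.00971), inside the limit and 0.60 without the second Model-headed library, but beyond the limit without the first Model-headed library (1.05), under quantile (1.16) and under median-ratio scaling (1.18). Of 7 endothelial markers 6 were listed, 3 of them called higher (Pecam1, Kdr and Tek) and 3 not called, beside 28.4% of all listed genes called higher. Vwf overlapped between the groups. The 6 listed markers had summed levels of 11619 to 14387 in the Cal-headed and 5202 to 6297 in the Model-headed libraries and none at 0, and their part in the result was not tested.

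Within the cells, the Smads of the BMP branch did not move as a block. Smad1, a BMP-activated Smad, had 278, 280 and 307 normalized counts in the Cal-headed libraries against 824, 1082 and 1066, a log2 fold change of -1.77 ± 0.156 (limma BH-adjusted p = 0.000201). Smad9, the third BMP-activated Smad, went up at a far lower level, with 37, 19 and 21 reads against 10, 4 and 5, and its log2 fold change of 1.65 became 0.97 with a pseudocount of 10, inside the limit. Smad6, which blocks the BMP Smads, had 208, 209 and 204 normalized counts against 122, 98.8 and 128, and Smurf1, a ubiquitin ligase that marks Smads and receptors for breakdown, had 855, 833 and 902 against 564, 460 and 518. Their log2 fold changes of 0.84 (limma BH-adjusted p = 0.00361) and 0.75 (limma BH-adjusted p = 0.00202) were not called under the authors' scaling and were called under median-ratio scaling (1.13 and 1.05), Smurf1 also under quantile scaling (1.09). No Smad of the TGF-beta branch was listed in either table. The Id genes, which code for helix-loop-helix proteins without a DNA-binding region, were lower. Id2 had 95.01, 110 and 85.4 against 273, 341 and 381, a log2 fold change of -1.76 ± 0.196 (limma BH-adjusted p = 0.000371). Id1 had 249, 169 and 160 against 440, 270 and 381, so the lowest Model-headed value was close to the highest Cal-headed one. Its log2 fold change of -0.91 ± 0.252 (limma BH-adjusted p = 0.00989) was -1.11 without the second Model-headed or without the first Cal-headed library, and lost the adjusted p under median-ratio scaling (-0.61, adjusted p = 0.0667). Tgfb1i1 (Hic-5), a focal adhesion adaptor that the pattern takes by its name, had 425, 460 and 477 against 262, 265 and 242 and was not called (log2 fold change 0.82, limma BH-adjusted p = 0.00155), but was called under median-ratio scaling (1.12).

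In the Wnt branch 3 of 4 ligands were called higher in the Cal-headed libraries, each at 109 normalized counts or fewer. Wnt9a had 109, 100.4 and 80.3 normalized counts against 46.4, 28.05 and 36.4, a log2 fold change of 1.38 ± 0.264 (limma BH-adjusted p = 0.00257). Its paralog Wnt9b had 47.0, 26.3 and 30.7 against 21.6, 4.88 and 10.5, and its log2 fold change of 1.59 (limma BH-adjusted p = 0.0178) lost the adjusted p without the first Cal-headed library (0.0638). Wnt2 had 9, 9 and 22 reads against 1, 0 and 0, a ratio of 33.6 with a 95% exact counting interval of 5.69 to 1360. That interval covers counting error only, and the fitted log2 fold change was 3.24 with a pseudocount of 1, 5.60 with 0.1 and 1.04 with 10. Wnt4, a ligand made in developing kidney and other mesenchyme, was the ligand that fell, with 3, 6 and 12 reads against 27, 43 and 49 and a log2 fold change of -2.70 ± 0.466 (limma BH-adjusted p = 0.00178), or -1.70 with a pseudocount of 10.

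The Frizzled receptors of Wnt split as the ligands did. Fzd1 had 146, 162 and 158 normalized counts against 373, 410 and 301, a log2 fold change of -1.20 ± 0.172 (limma BH-adjusted p = 0.000908) that lay inside the limit under median-ratio scaling (-0.90). Fzd2 had 57.2, 42.2 and 68.3 against 8.64, 12.2 and 15.3, a log2 fold change of 2.13 ± 0.323 (limma BH-adjusted p = 0.00108). The coreceptor Lrp5 had 1292, 1124 and 1161 against 724, 571 and 774, a log2 fold change of 0.80 (limma BH-adjusted p = 0.00278), not called, but called under quantile (1.20) and median-ratio scaling (1.10). Sfrp2, a soluble Frizzled-related protein that binds Wnts, had 46.1, 25.3 and 60.6 against 11.9, 17.1 and 18.2, a log2 fold change of 1.37 ± 0.380 (limma BH-adjusted p = 0.0102). Beta-catenin itself (Ctnnb1) had the smallest difference of the 34 members. It had 5342, 5418 and 5398 against 3933, 4315 and 3995, a log2 fold change of 0.40 ± 0.124 (limma BH-adjusted p = 0.0148), which was 1.08 under quantile scaling and was over the adjusted p threshold without any 1 Cal-headed library (0.0511 to 0.0542). Lef1, a DNA-binding partner of beta-catenin, had no read in the 3 Cal-headed libraries and 11, 2 and 2 reads in the Model-headed ones. Its mean was at least 1.99-fold higher in the Model-headed libraries, set against 3 counts per Cal-headed library, and the call was lost with a pseudocount of 10 (limma BH-adjusted p = 0.0596) and under quantile scaling (limma BH-adjusted p = 0.0532). Without the first Model-headed library, which held most of these reads, the Model-headed mean of 2.18 was below that floor of 2.72 normalized counts, so no bound remained. The fitted log2 fold change of -2.34 was -1.66 without it.

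**Figure D2:**
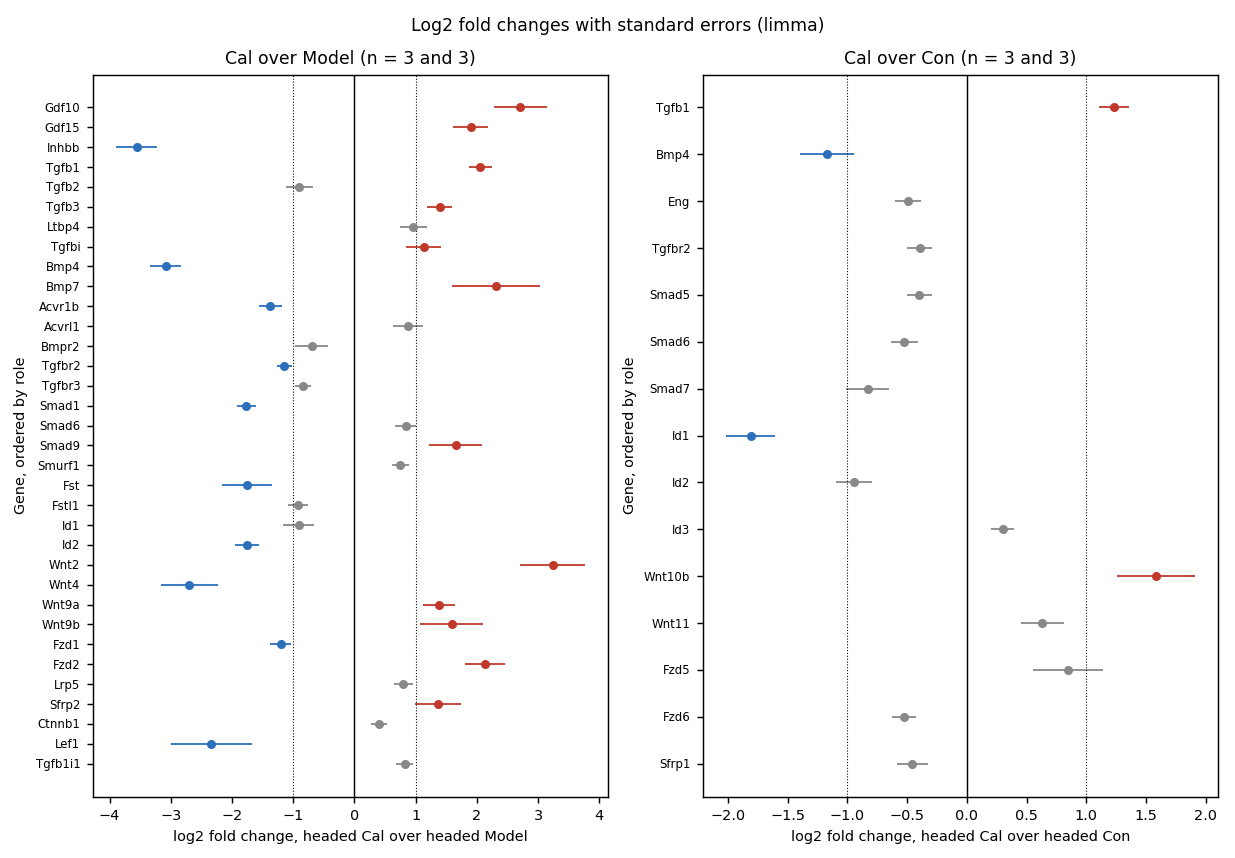
Points are limma log2 fold changes on log2(normalized count + 1), bars are standard errors (n = 3 and 3), red and blue mark called genes, gray marks genes not called, and dotted lines mark a log2 fold change of 1 in either direction. On the left (Cal-headed over Model-headed, 34 genes) the values run from -3.56 (Inhbb) to 3.24 (Wnt2, with 1 read in the Model-headed libraries), and on the right (Cal-headed over Con-headed, 15 genes) from -1.81 (Id1) to 1.58 (Wnt10b), where Id3 at 0.30 turned to -0.08 under quantile scaling.

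The second table sets the same Cal-headed libraries against the Con-headed sham hearts, so its fold changes share those libraries with the first comparison and are not an independent repeat of it. Here Tgfb1 and Wnt10b were called higher in the Cal-headed hearts, Bmp4 and Id1 were called lower, and the other 11 members were not called. Of the 15 members 2 (13.3%) were called higher, against 18.0% of all listed genes, and 2 (13.3%) were called lower, against 10.9%. Under quantile or median-ratio scaling 1 was called higher (6.67%, against 14.2% and 13.9% of all listed genes) and 4 lower (26.7%, against 15.7% and 18.2%). All 15 had no overlap between the groups, as had 97.4% of all listed genes. At any size 5 members were higher and 10 lower, while 60.7% of all listed genes were higher, and the median log2 fold change was -0.46 over the members against 0.37 over all listed genes. Of the 10 TGF-beta and BMP genes 8 were lower (median -0.51), and of the 5 Wnt genes 2 were (median 0.63).

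Tgfb1 had 1259, 1577 and 1644 normalized counts in the Cal-headed and 699, 590 and 611 in the Con-headed libraries, a log2 fold change of 1.23 ± 0.125 (limma BH-adjusted p = 0.000104) that fell inside the limit under quantile (0.83) and median-ratio scaling (0.95). Bmp4 had 33.0, 53.7 and 46.7 against 96.9, 93.3 and 109, a log2 fold change of -1.17 ± 0.225 (limma BH-adjusted p = 0.00230), or -0.98 without the first Cal-headed library. The strongest difference was in Id1, a direct target of BMP Smads. It had 279, 189 and 178 against 603, 870 and 781, a log2 fold change of -1.81 ± 0.202 (limma BH-adjusted p = 0.000181). Id2 had 106, 123 and 95.2 against 193, 215 and 217, a log2 fold change of -0.94 (limma BH-adjusted p = 0.00117) that was not called, but was under quantile (-1.08) and median-ratio scaling (-1.23) and without the second Cal-headed library (-1.04). Id3, the other listed member of the family, had 1008, 1028 and 1151 against 811, 866 and 910. Its log2 fold change of 0.30 (limma BH-adjusted p = 0.0142) was not called, turned to -0.08 under quantile scaling (adjusted p = 0.434), and was 0.02 under median-ratio scaling (adjusted p = 0.889) and 0.24 without the third Cal-headed library (adjusted p = 0.0546), so no direction is given for it.

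The 3 listed Smads were all lower in the Cal-headed libraries and none was called. Smad5, a BMP-activated Smad, had 866, 743 and 759 normalized counts against 1122, 1056 and 943 (log2 fold change -0.40, limma BH-adjusted p = 0.00779). Smad6 had 233, 235 and 228 against 348, 341 and 313 (log2 fold change -0.52, limma BH-adjusted p = 0.00352). Smad7, the inhibitor of both branches, had 238, 155 and 179 against 299, 332 and 376 (log2 fold change -0.83, limma BH-adjusted p = 0.00371), and it passed the limit under quantile (-1.03) and median-ratio scaling (-1.11) and barely without the first Cal-headed library (-1.001). Neither inhibitor overlapped between the groups, as was the case for 97.4% of all listed genes. Both listed receptors were lower without a call. Tgfbr2 had 1230, 1022 and 1128 against 1578, 1543 and 1331 (log2 fold change -0.40, limma BH-adjusted p = 0.00784). Endoglin (Eng), a coreceptor of endothelial cells, had 3665, 3003 and 3958 against 4862, 5280 and 4728 (log2 fold change -0.49, limma BH-adjusted p = 0.00387). The 5 listed of 7 endothelial markers, none at 0, summed to 12146 to 14064 in the Cal-headed and 19512 to 22159 in the Con-headed libraries. Of these, Kdr was called lower (-1.09) and 4 were not called, beside 10.9% of all listed genes called lower. The part of these markers in these results was not tested.

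The Wnt genes of the second table were other genes than those of the first. Wnt10b, a canonical ligand, was the only 1 of the 5 called, with 27.9, 24.2 and 40.0 normalized counts against 9.32, 7.86 and 11.1 and a log2 fold change of 1.58 ± 0.325 (limma BH-adjusted p = 0.00303). Wnt11, a ligand of the branch without beta-catenin, had 102, 137 and 112 against 79.2, 78.6 and 66.8 (log2 fold change 0.63, limma BH-adjusted p = 0.00999), which was over the threshold under median-ratio scaling (0.118). Fzd5 had 102, 88.4 and 179 against 69.0, 78.6 and 50.6 and rested on the third Cal-headed library. Its log2 fold change of 0.84 (limma BH-adjusted p = 0.0205) was 0.54 without that library (adjusted p = 0.0719), 0.67 without the third Con-headed one (adjusted p = 0.0751), 0.56 under median-ratio scaling (adjusted p = 0.119) and 1.05, called, without the second Cal-headed library. Fzd6, a receptor of the planar polarity branch, and Sfrp1, a soluble Wnt inhibitor, were lower and not called. Fzd6 had 404, 379 and 373 against 527, 587 and 557 (log2 fold change -0.53, limma BH-adjusted p = 0.00226). Sfrp1 had 290, 259 and 325 against 435, 361 and 402 (log2 fold change -0.46, limma BH-adjusted p = 0.0102).

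The 6 genes in both tables can be set out over all 9 libraries. The Con-headed values were multiplied by 0.894, the mean factor that carries the shared Cal-headed libraries from the second table to the first (0.892 to 0.897 between libraries), and no test was made across the tables. Tgfb1 was lowest in the Model-headed libraries at 322 ± 65.8 normalized counts (SD, n = 3), at 567 ± 51.5 in the Con-headed and highest at 1335 ± 185 in the Cal-headed ones, and no 2 groups overlapped. Its receptor gene Tgfbr2 ran in the opposite order, at 1008 ± 94.1 Cal-headed, 1327 ± 120 Con-headed and 2224 ± 25.2 Model-headed. Bmp4 had that same order, at 39.7 ± 9.35, 89.3 ± 7.51 and 342 ± 66.5, as did Id2, at 96.7 ± 12.3, 186 ± 11.9 and 332 ± 54.7. For these 4 genes the Con-headed hearts lay between the other groups with no overlap on either side, as they did for 123 of all 986 genes in both tables (12.5%), and the listing itself favors a lack of overlap with the Cal-headed libraries. These orders hold for the authors' scaling only. Quantile and median-ratio scaling moved the median log2 fold change by 0.42 and 0.30 in the first table. In the second they moved it by -0.42 and -0.28. The Model-headed and Con-headed levels would therefore shift against each other, and the orders were not recomputed under these scalings. Smad6 and Id1 were highest in the Con-headed hearts instead. Smad6 was at 299 ± 16.8 there, 207 ± 2.79 in the Cal-headed and 116 ± 15.6 in the Model-headed libraries. Id1 was at 672 ± 122, 193 ± 49.1 in the Cal-headed and 363 ± 86.3 in the Model-headed libraries. In Id1 the highest Cal-headed value (249) was close to the lowest Model-headed one (270).

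**Figure D3:**
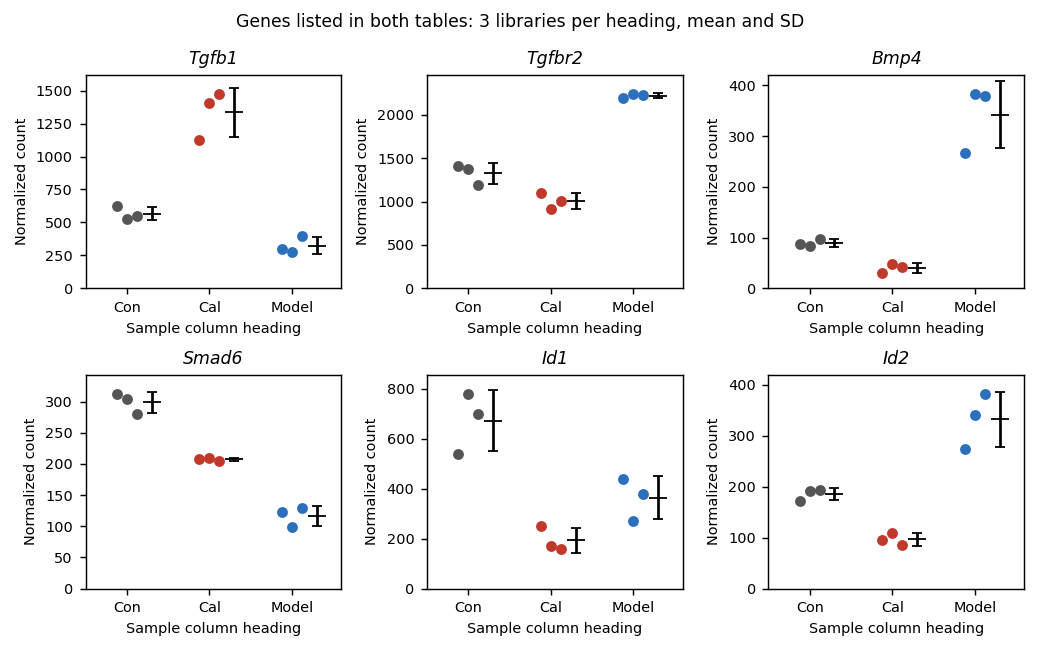
Each panel is a gene listed in both tables, each point a library by its sample column heading (n = 3 per heading), with the mean and SD beside it as a bar, and the vertical axis is the normalized count on the scale of the first table from 0. Tgfb1 is highest in the Cal-headed libraries (1335), Tgfbr2, Bmp4 and Id2 in the Model-headed ones (2224, 342 and 332), and Smad6 and Id1 in the Con-headed ones (299 and 672).

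Ratios of reads per gene length between a pair of genes in the same library do not depend on the scaling of libraries. They were computed for 4 pairs chosen after the values were seen, so they carry no test. Tgfb1 stood at 10.3, 15.5 and 17.7 times Tgfb2 per length in the Cal-headed libraries and at 1.67, 1.25 and 2.80 times in the Model-headed ones, a log2 difference of 2.97 ± 0.413 (SE, n = 3 and 3). Against its type II receptor Tgfbr2, Tgfb1 stood at 1.66, 2.51 and 2.37 in the Cal-headed, 0.719, 0.621 and 0.746 in the Con-headed and 0.219, 0.198 and 0.288 in the Model-headed libraries. By the deposited gene lengths, ligand thus exceeded receptor only in the Cal-headed libraries among these 9. Whether a ratio lies above or below 1 depends on those lengths, while the difference between groups does not. The BMP-activated Smad1 stood at 0.682, 0.684 and 0.771 times its inhibitor Smad6 in the Cal-headed and 3.46, 5.60 and 4.25 times in the Model-headed libraries, a log2 difference of -2.61 ± 0.210. For Tgfb1 over Tgfb3 the ratios overlapped, at 2.35, 4.55 and 3.67 against 1.78, 1.95 and 2.83.

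**Figure D4:**
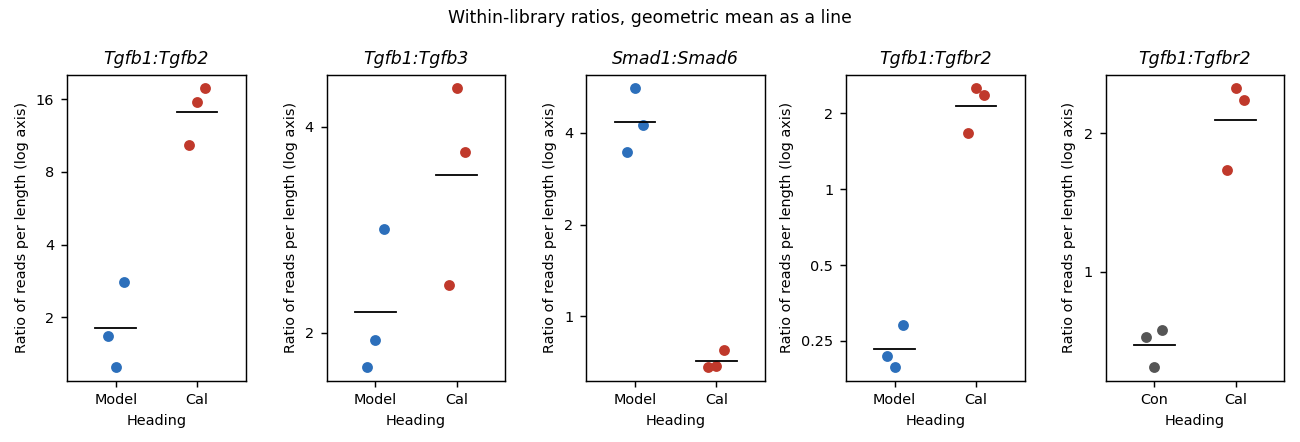
Points are within-library ratios of reads per gene length on log axes, named by sample column heading (n = 3 each), with the geometric mean as a line, for Tgfb1 over Tgfb2, Tgfb1 over Tgfb3, Smad1 over Smad6 and Tgfb1 over Tgfbr2 (the last in both tables). Groups are apart in all panels but Tgfb1 over Tgfb3, where 2.35 in a Cal-headed library lies below 2.83 in a Model-headed one.

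Levels between genes were compared as normalized counts per kb of the deposited gene length. In the first table the highest member levels were those of Ltbp4 (1171 per kb Cal-headed, 618 Model-headed), Ctnnb1 (1037 and 786) and Fstl1 (628 and 1202). Tgfb1 stood at 265 and 63.9 per kb and Tgfbr2 at 123 and 272. Among the low ones were Wnt2 (5.25 and 0.160), Wnt4 (1.48 and 10.2) and Lef1, at 0 and 0.616. In the second table endoglin led with 875 per kb Cal-headed and 1225 Con-headed. Id3 stood at 593 and 481 and Id1 at 186 and 648, so Id3 came next in the Cal-headed and Id1 in the Con-headed libraries.

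Other genes of the same pathways were read from lists outside the symbol pattern. Of 32 further TGF-beta and BMP genes, 12 were listed in the first table, of which 3 were called higher in the Cal-headed libraries, 5 lower and 4 not called, where 28.4% and 31.6% of all listed genes were called. The median log2 fold change was -0.78, against -0.52 over all listed genes. Lysyl oxidase (Lox), the collagen cross-linking enzyme, had 107, 165 and 138 normalized counts against 675, 712 and 475 Model-headed (log2 fold change -2.17, limma BH-adjusted p = 0.000317). Bmper, a secreted BMP regulator, was at -2.10 (limma BH-adjusted p = 0.000737) and the BMP-responsive factor Atoh8 at -2.06 (limma BH-adjusted p = 0.000188). Hepcidin (Hamp), a BMP target best known in the liver, was at -1.92 (limma BH-adjusted p = 0.00305). The integrin subunit gene Itgb8 was also called lower, at -1.36 (limma BH-adjusted p = 0.0317). It had 40.6, 29.1 and 41.0 normalized counts against 105, 193 and 42.2 Model-headed. Thbs1, which activates latent TGF-beta, was called higher at 1.47 (limma BH-adjusted p = 0.00877), as was the secreted BMP antagonist Nbl1, with 302, 339 and 295 against 114, 139 and 210 (log2 fold change 1.05, limma BH-adjusted p = 0.00491). Of the 32, 11 were listed in the second table, 5 called higher, none lower and 6 not called, beside 18.0% and 10.9% of all listed genes, with a median of 0.93 against 0.37. Those called higher included Thbs1, with 5167, 10180 and 5825 normalized counts against 1666, 831 and 593 Con-headed (log2 fold change 2.85, limma BH-adjusted p = 0.000416), the Smad corepressors Tgif2 (2.99) and Skil (1.40), and Hamp (2.75). Tgif2 and Hamp were near the floor in the Con-headed libraries, at 3.73, 7.86 and 3.04 and at 2.80, 0 and 5.06 normalized counts.

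Of 52 further Wnt genes 11 were listed in the first table, 7 called higher in the Cal-headed libraries, none lower and 4 not called, where 28.4% and 31.6% of all listed genes were called. The median log2 fold change was 1.57, against -0.52 over all listed genes. They included the Wnt antagonist Nkd1 (64.6, 33.8 and 52.1 against 8.64, 1.22 and 15.3 normalized counts) and Apc2, a relative of the beta-catenin destruction complex protein Apc (103, 83.5 and 78.6 against 10.8, 12.2 and 19.2). Of the 52, 9 were listed in the second table, 1 called higher, 1 lower and 7 not called, beside 18.0% and 10.9% of all listed genes, with a median of -0.42 against 0.37. Myc, a target of beta-catenin among many other regulators, had 575, 695 and 660 against 68.0, 55.0 and 57.7 Con-headed (log2 fold change 3.396, limma BH-adjusted p = 1.01e-06), and the polarity gene Prickle2 was the one lower (-1.08, limma BH-adjusted p = 0.000280). These lists, like the members, were drawn with earlier results of the data known and show counts only.

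Markers of other cell types differed between the same groups. All 6 neutrophil markers were called lower in the Cal-headed than in the Model-headed libraries, where 31.6% of all listed genes were called lower. Their summed levels were 71.9 to 231 against 860 to 1048. Camp was at 0 in 2 Cal-headed libraries and overlapped between the groups, at 1.88 in a Cal-headed and 1.22 in a Model-headed library. The 2 neutrophil markers listed in the second table were higher in the Cal-headed than in the Con-headed libraries (48.5 to 183 against 13.0 to 28.5). The 4 listed of 7 macrophage markers summed to 2250 to 3263 against 768 to 1141 in the first table, none at 0. Of these, Csf1r, Cd163 and C1qa were called higher, beside 28.4% of all listed genes, and Cd68 was not called. Mrc1, the only 1 in the second table, was not called (log2 fold change -0.49). The T cell gene Lck was called lower in the first table (-3.98). Smooth muscle markers (2 of 4 listed, none called) summed to 3194 to 3440 against 2079 to 2306 in the first table and to 3580 to 3835 against 4409 to 4844 in the second. Of 4 pericyte markers 1 was listed in the first table and not called (Abcc9, 0.59), and 3 in the second, with Kcnj8 called lower (-1.34) and sums of 10555 to 12285 against 14779 to 18712. All 4 red blood cell markers were listed in the second table, with Hbb-bt called higher (1.20) and sums of 11104 to 14863 against 6643 to 10394. Of 7 fibroblast markers 2 were listed in the first table, Col1a1 called higher (log2 fold change 1.38) and Dcn at -0.69, not called. The 4 listed in the second table (Pdgfra, Dcn, Lum and Tcf21) summed to 9550 to 12371 against 14389 to 16008 Con-headed. Dcn made up most of these sums, with means of 9626 Cal-headed and 12116 Con-headed. Pdgfra was called lower (-1.21) and the other 3 were not called, beside 10.9% of all listed genes called lower. The part of these cell types in the pathway genes' differences was not tested.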

How the data were processed

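Hearts of 9 rats were profiled by poly(A) RNA-seq, 3 libraries in each of 3 groups. The authors aligned reads to the rat reference, counted them by gene and ran DESeq2, and the submitters' processing notes name Bowtie 0.12.2, mm8 and mm9. The tables carry mouse Ensembl identifiers and no build, and the counting tool is not given in the sources used here, so cross-species assignment may affect single genes. Close relatives such as Wnt9a and Wnt9b, or Smad5 and Smad9, may share reads. The deposited signal is a gene's read count divided by a size factor that the authors set per library and table (0.820 to 1.17 and 0.950 to 1.07). Every sample value (100%) gave whole reads within 0.02, with 2860826 to 4659882 reads per library on the listed genes, and full depth is unknown because the tables list only genes that passed the authors' test. The authors' fold changes, p-values and means were not used, except to compare headings.

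Values were fitted with limma 3.58.1 (R 4.3.3, trended prior variance) on log2(normalized count + 1) over all 4288 or 2458 listed genes of a table, with Benjamini-Hochberg adjustment over them. Genes were called at an adjusted p under 0.05 with a log2 fold change over 1 in size. The code of the test was checked on simulated counts in which most genes were unchanged. The listed genes were selected for a difference, so that check says nothing of the calls made here. Single values had exact permutation tests in scipy 1.17.1. The alternatives were a pseudocount of 0.1 or 10, only genes with a mean of 10 or more, quantile or median-ratio scaling, no fold limit, edgeR 4.0.16 or DESeq2 1.42.0 run on whole reads, a replicate block, and leaving out each library. The second table, which the depositors named Model against Con, was planned as Model against Control, but its sample columns are headed Cal and Con. Nothing says how animals were housed or operated in batches, and p-values measure the spread between these libraries. Every listed member is named, with values in each library for those in both tables, the main ligands, receptors, Smads and Ids, and the largest changes per role with a mean of at least 50. The members and gene lists were chosen with earlier results of these data known. A further gene of these lists is counted but not reported here.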

Additional observations from a re-analysis of the deposited data

How the results depend on the processing

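With edgeR, DESeq2, a mean of at least 10 or the replicate block, every member listed under that setting kept its direction and its side of the adjusted p threshold. Of the 34 members of the Cal and Model table, 12 were called higher and 10 lower in the Cal-headed libraries. Without a fold limit 19 were higher and 15 lower, beside 1971 and 2301 of all 4288 listed genes. Leaving out 1 library gave 11 to 13 higher and 10 to 12 lower, beside 26.1% to 29.7% and 28.5% to 33.3% of all listed genes. The Cal and Con table had 2 members called higher and 2 lower. Quantile normalization gave 1 higher and 4 lower, median-ratio scaling also 1 and 4, and no fold limit 5 and 10, beside 348 and 387, 342 and 447, and 1490 and 964 of all 2458 listed genes. In that table leaving out 1 library gave 2 to 3 higher and 2 to 3 lower, beside 17.1% to 19.1% and 10.2% to 12.4% of all listed genes. Id3 was reversed under quantile normalization, at -0.084 on the log2 scale, and the cause was not tested. These scalings moved the median log2 fold change of all listed genes by 0.42 (quantile) and 0.30 (median-ratio) in the first table and by -0.42 and -0.28 in the second, so a gene's direction is relative to that choice, and the listed genes are a selected set. The replicate block gave 12 and 10 calls in the first table and 2 and 2 in the second. Same-numbered libraries deviated together with correlations of 0.12, -0.13 and -0.08 in the first table and -0.04, -0.13 and -0.12 in the second. No pairing by number was seen in these values, which cannot exclude that same-numbered hearts were handled together. Depth limits Wnt2, Wnt4, Wnt9b, Gdf10, Smad9, Bmp7 and Lef1, which had 5 or fewer reads in at least 1 library.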
